A study of Cucumis sativus with 6 samples.

Results

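Phenylalanine ammonia-lyase (PAL) is encoded in cucumber (Cucumis sativus) by several gene copies, and 5 of them lie side by side near the start of chromosome 4. They were taken from the deposited gene table as every gene whose product name contains phenylalanine ammonia-lyase and whose locus falls within that stretch, which gave 5 of the 16 PAL genes and of 21317 genes in all. The samples were peel and flesh dissected from self-pollinated fruits of the inbred line YB. They were collected on days 3, 6 and 9, and 3 fruits were pooled for each of the 6 libraries (1 for each tissue on each day), in a study that looked for genes related to fruit astringency. No treatment or mutation distinguished the groups, and all fruits came from the same inbred line, so other cucumber types are not covered.

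PAL removes ammonia from the amino acid phenylalanine and releases cinnamic acid. This is the entry step of phenylpropanoid metabolism, which leads to lignin, to flavonoids and to condensed tannins, the class of compound that gives an astringent taste. The product is passed to cinnamate 4-hydroxylase and then to 4-coumarate-CoA ligase. PAL genes commonly occur in families, and members are known in many plants to respond to wounding, pathogens and light.

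The chromosome 4 copies spanned 15093 bp, from 1356382 to 1371474 in the positions of the table, whose genome build is not given in the sources used here (nor is whether starts count from 0 or 1). No other gene of the table lay inside this stretch. The models were of unequal size. Csa4G008250 (1356382 to 1357195) and Csa4G008260 (1357397 to 1358239) were the short ones, at 814 and 843 bp, and only 201 bp separated them. Csa4G008760 (1360190 to 1362151), Csa4G008770 (1364696 to 1366556) and Csa4G008780 (1369533 to 1371474) spanned 1962, 1861 and 1942 bp, with gaps of 1950, 2544 and 2976 bp before them. All 5 carried the aromatic amino acid lyase annotation. Csa4G008250 was annotated with the PAL shielding domain and without the N-terminal fumarase/histidase part, whereas Csa4G008260 was annotated with the N-terminal part and without the shielding domain. Csa4G008760 and Csa4G008770 had both, and Csa4G008780 had the N-terminal part alone. Of all 16 PAL genes, 11 were annotated with both parts. Whether the short pair are pieces of 1 gene was not tested.

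**Figure D1:**
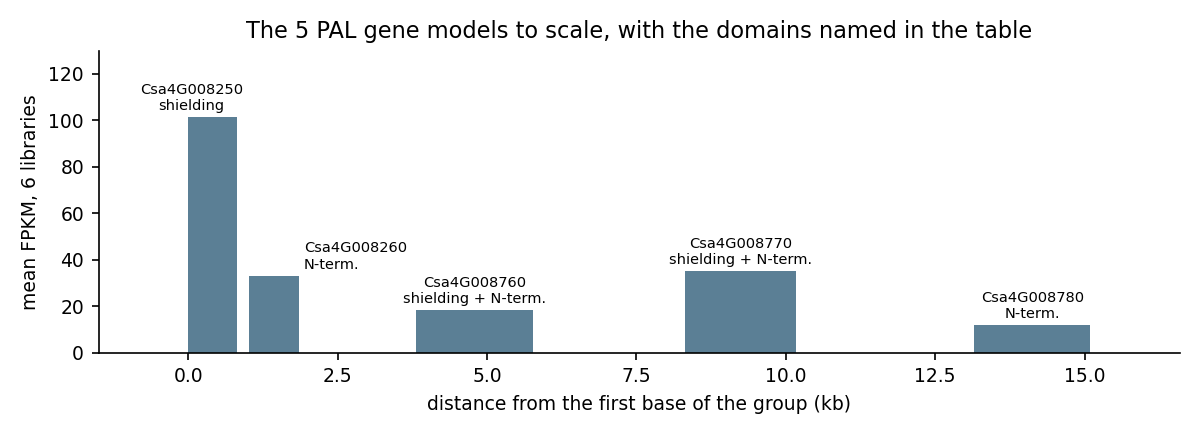
The 5 PAL gene models of the chromosome 4 group drawn to scale by distance from the first base (kb), with bar height giving the mean FPKM over the 6 libraries and labels giving the domains named in the table. The 2 short models stand next to each other at the left, and the first of them has the highest mean level, 101.3 FPKM.

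The peel library of day 9 stood apart from the rest across the 17265 tested genes. The leading principal component, from log2(FPKM + 1) centred by gene, held 51.8% of the variance and put it at 124, with the other libraries between -79.6 and 36.6.

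In peel the level of the 5 copies together was higher on each later day, and in flesh it was far lower at days 6 and 9 than at day 3. The summed level of the copies was 199.95, 275 and 513 FPKM (fragments per kilobase of a gene's model and per mapped-fragment unit of its library) in peel at days 3, 6 and 9. In flesh it was 158, 15.1 and 41.8 FPKM. Peel was above flesh by 1.27-fold at day 3 (95% counting interval 1.22 to 1.32), by 18.2-fold at day 6 (16.5 to 20.1) and by 12.3-fold at day 9 (11.4 to 13.2). These intervals are exact binomial ones on the recovered reads and cover counting error only, not differences between fruits. For sums they are approximate, because the reads were pooled over the copies while an FPKM sum gives reads of shorter models more weight. The reads behind the sums numbered 4753, 6124 and 7813 in peel and 4512, 434 and 845 in flesh. In bulk tissue, fewer cells that use a gene and less RNA per cell cannot be told apart. The summed level of 14 epidermis and cuticle genes was 266, 316 and 537 FPKM in peel at days 3, 6 and 9, and 156, 89.9 and 90.2 FPKM in flesh. In peel it was higher on each later day, as was the PAL sum. In flesh it was lower at days 6 and 9 than at day 3. Its flesh values at days 6 and 9 were nearly equal, unlike those of the PAL sum. Csa1G418240, the most abundant of the 14, held 114, 49.2 and 49.8 FPKM of the flesh sums at days 3, 6 and 9. Most of the lower flesh sum at days 6 and 9 was thus that of a single gene. The next most abundant, Csa2G361630, was higher in flesh at days 6 and 9 (27.9 and 29.0 FPKM) than at day 3 (21.7). The part of epidermis and cuticle in the PAL levels was not tested.

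Csa4G008250, the most abundant copy per length, stood at 114, 137 and 254 FPKM in the peel libraries and at 79.2, 4.84 and 18.8 FPKM in those of flesh. Csa4G008770 stood at 31.3, 48.0 and 94.0 FPKM in the peel libraries and at 28.1, 3.19 and 7.43 FPKM in those of flesh. Csa4G008260 stood at 26.8, 49.1 and 83.5 FPKM in the peel libraries and at 28.6, 4.01 and 7.59 FPKM in those of flesh. In each of these 3 copies the peel levels were highest at day 9 and the flesh levels lowest at day 6. Csa4G008760 stood at 17.2, 28.0 and 44.6 FPKM in the peel libraries and at 14.0, 1.94 and 5.44 FPKM in those of flesh. Csa4G008780, the copy with the lowest mean, stood at 10.4, 13.2 and 36.8 FPKM in the peel libraries and at 7.97, 1.11 and 2.55 FPKM in those of flesh. The order day 3, day 6, day 9 from low to high in peel held in all 5 copies, and so did the order day 6, day 9, day 3 in flesh. Both orders together were found in 353 of the 17265 tested genes (2.04%). The orders were taken from the copies themselves, so this share does not measure how unusual the copies are.

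**Figure D2:**
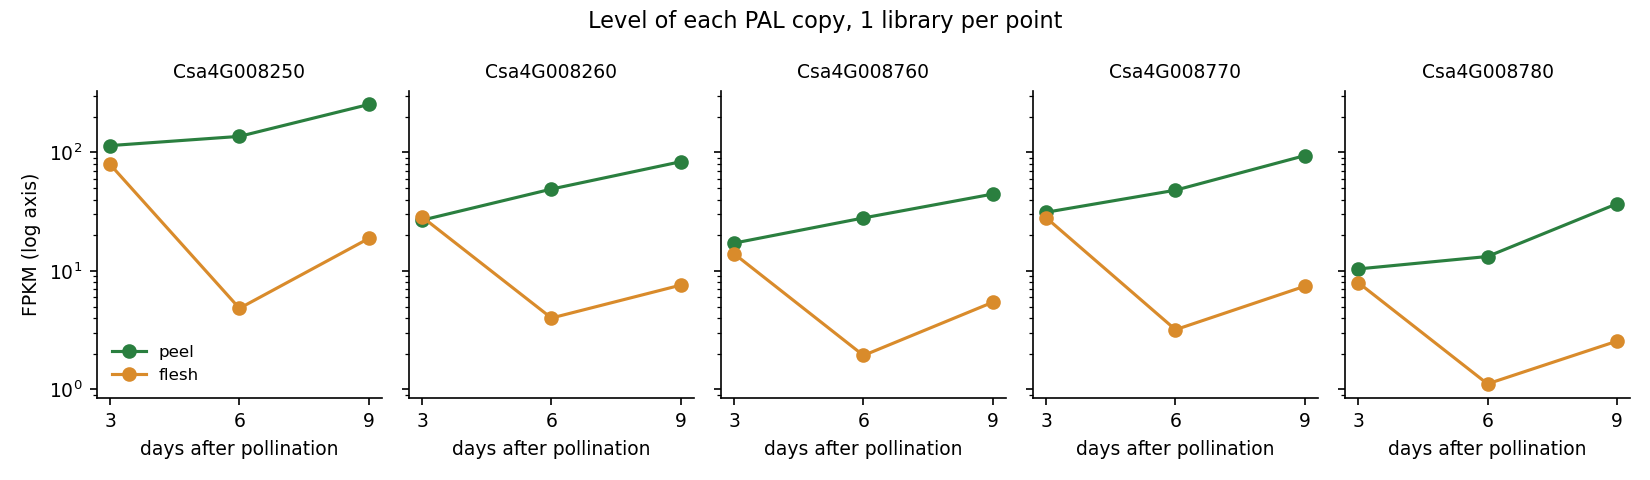
FPKM of each PAL copy (log axis) against days after pollination, with peel in green, flesh in orange and 1 library per point. Peel and flesh start close together at day 3 in every copy and lie apart at days 6 and 9, with the flesh minimum at day 6.

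The lowest peel level was above the highest flesh level in 4 of the 5 copies, as in 11.8% of tested genes. These were Csa4G008250 (114 against 79.2 FPKM), Csa4G008760 (17.2 against 14.0), Csa4G008770 (31.3 against 28.1) and Csa4G008780 (10.4 against 7.97). In Csa4G008260 the groups overlapped, as flesh at day 3 (28.6 FPKM) exceeded peel at day 3 (26.8 FPKM). On single days there was 1 library on each side and no test. At day 3, 0 of the 5 copies were at least 4-fold higher in peel, where 2.66% of tested genes were. At day 6 all 5 were at least 4-fold higher (5.09% of tested genes), or 4 of them with a pseudocount of 5, and at day 9 all 5 were (7.03% of tested genes). Folds counted in this way are on log2(FPKM + 1), which understates the change of low genes. On this scale the copies had a median difference of 0.28, 3.32 and 3.41 at the successive days, against 0.0037, -0.026 and -0.059 over all tested genes.

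The copies did not all differ by the same factor. At day 6, Csa4G008250 was 28.3-fold higher in peel than in flesh (counting interval 22.9 to 35.3), above the intervals of the other 4. Those had ratios of 11.9 (Csa4G008780, 9.01 to 15.9), 12.3 (Csa4G008260, 9.56 to 15.9), 14.5 (Csa4G008760, 11.2 to 18.9) and 15.0 (Csa4G008770, 12.8 to 17.9). At day 9 the lowest ratio belonged to Csa4G008760 at 8.19 (6.83 to 9.87) and the highest to Csa4G008780 at 14.4 (11.7 to 18.0). At day 3 the ratio of Csa4G008250 was 1.44 (1.35 to 1.54) and that of Csa4G008260 was 0.940, with an interval that included 1 (0.825 to 1.07).

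**Figure D3:**
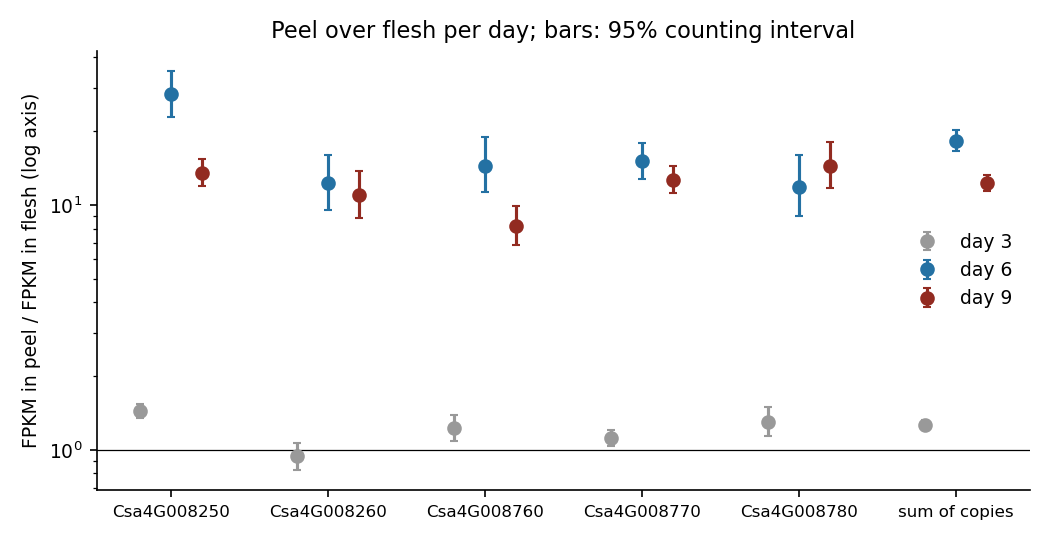
Ratio of FPKM in peel to FPKM in flesh (log axis) for each copy and for the sum of copies at days 3, 6 and 9, with 95% counting intervals as bars. The day 3 ratios lie near 1, and those of days 6 and 9 lie between 8.19 and 28.3.

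Peel and flesh were then compared over the 3 days in limma, on log2(FPKM + 1), with tissue and day in the model. The log2 difference was 2.92 ± 0.84 (SE) for Csa4G008250 (limma adjusted p = 0.139), 2.40 ± 0.77 for Csa4G008770 (adjusted p = 0.162) and 2.18 ± 0.78 for Csa4G008260 (adjusted p = 0.185). It was 2.17 ± 0.65 for Csa4G008780 (limma adjusted p = 0.147) and 2.14 ± 0.65 for Csa4G008760 (adjusted p = 0.15). Thus 0 of the 5 copies passed at an adjusted p under 0.05, where 0.18% of tested genes passed toward peel. At an unadjusted p under 0.05 all 5 were higher in peel, as were 13% of tested genes. On the recovered reads edgeR called 0 of the 5 (1.06% of its genes passed toward peel), and DESeq2 called all 5 higher in peel (9.95% of its genes), with adjusted p from 4.76e-04 to 8.52e-03. The SE here rests on how far the 3 days depart from a common difference, because each tissue and day has a single library. The small gap at day 3 counts as error. In limma each gene's variance is also drawn toward a trend over all tested genes. The SE and p thus rest only in part on the copy's own days. With 1 library of day 3 left out, that of peel or that of flesh, the difference of Csa4G008250 was 4.12 (the range over the copies was 3.06 to 4.12), and with 1 of day 6 left out it was 2.11 (range 1.55 to 2.11). With 1 of day 9 left out, the peel library that stood apart or that of flesh, the copies lay between 1.55 and 2.54.

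The course over the days was compared within each tissue first. In flesh from day 3 to day 6, all 5 copies were at least 4-fold lower, as were 1.53% of tested genes. The level of Csa4G008250 at day 6 was 0.0611 of that at day 3 (counting interval 0.0488 to 0.0755), and the other copies were at 0.114 to 0.140 of their own day 3 levels. From day 6 to day 9 in flesh 0 of the 5 copies were at least 4-fold higher on the log2(FPKM + 1) scale (3.35% of tested genes were). Their FPKM ratios ran from 1.90 (Csa4G008260, 1.37 to 2.63) to 3.89 (Csa4G008250, 3.05 to 5.00), each with an interval above 1. In peel 0 of the 5 copies were at least 4-fold higher from day 3 to day 6 (0.753% of tested genes were) or from day 6 to day 9 (3.79%). The peel ratios of day 6 to day 3 ran from 1.20 (Csa4G008250) to 1.83 (Csa4G008260). Those of day 9 to day 6 ran from 1.59 (Csa4G008760) to 2.78 (Csa4G008780). Over the whole period the peel ratio of day 9 to day 3 was lowest in Csa4G008250 at 2.22 (2.10 to 2.36) and highest in Csa4G008780 at 3.54 (3.17 to 3.96).

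A model with a separate slope over days for each tissue tested whether these courses differed in their straight-line trend. The slope in peel exceeded that in flesh by 0.42 to 0.56 log2 units per day over the 5 copies. In limma 0 of the 5 passed, and 0% of tested genes passed in either direction, with 1505 genes at an unadjusted p under 0.05. Among the copies only Csa4G008260 was at an unadjusted p under 0.05 (0.56 ± 0.22, SE; limma adjusted p = 0.571), where 3.83% of tested genes were at such a p with a positive slope difference. DESeq2 also called 0 of the 5, against 1.18% of its genes with a positive difference, and edgeR called 0 genes in all. Each copy's slope difference depended on the flesh libraries of days 3 and 9: it lay between -0.40 and 0.039 over the copies without flesh at day 3 (0.0073 for Csa4G008260) and between 0.98 and 1.45 without flesh at day 9. A straight line over days describes the flesh values poorly, since their minimum lay in the middle. For day 9 against day 3 over both tissues, 0 of the 5 copies and 0% of tested genes passed in limma, with 4299 genes at an unadjusted p under 0.05 and 0 copies among them. The estimates of the copies lay between -0.44 (Csa4G008250) and 0.20 (Csa4G008780), with peel higher and flesh lower at day 9 than at day 3. edgeR and DESeq2 called 0 of the 5 copies for this contrast.

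The make-up of the group was described by each copy's share of the reads. Csa4G008250 held 41.5% of the 4753 reads in peel at day 3 (exact 95% interval 40.1 to 42.9), 35.5% at day 6 and 33.9% at day 9. In flesh it held 35.7% at day 3, 20.7% of 434 reads at day 6 (17.0 to 24.9) and 30.5% at day 9 (27.4 to 33.8). Its share was therefore lowest in the library with the lowest sum. Csa4G008770 held between 28.4% (peel, day 3) and 35.3% (flesh, day 6), and the other 3 copies between 8.92% and 16.3% in any library. The longer model of Csa4G008770 gathers more reads at a given level, so by FPKM Csa4G008250 made up more of the sum, 57.1% in peel at day 3 and 32.1% in flesh at day 6. In pairs the copies had Pearson correlations of 0.967 to 0.998 on log2(FPKM + 1) over the 6 libraries, which share depth and tissue. The recovered reads of each copy were whole in all 6 libraries, to within 0.0054 of a read. The sources used here do not give how reads matching more than 1 copy were assigned, and levels of single copies are less certain than their sum.

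**Figure D4:**
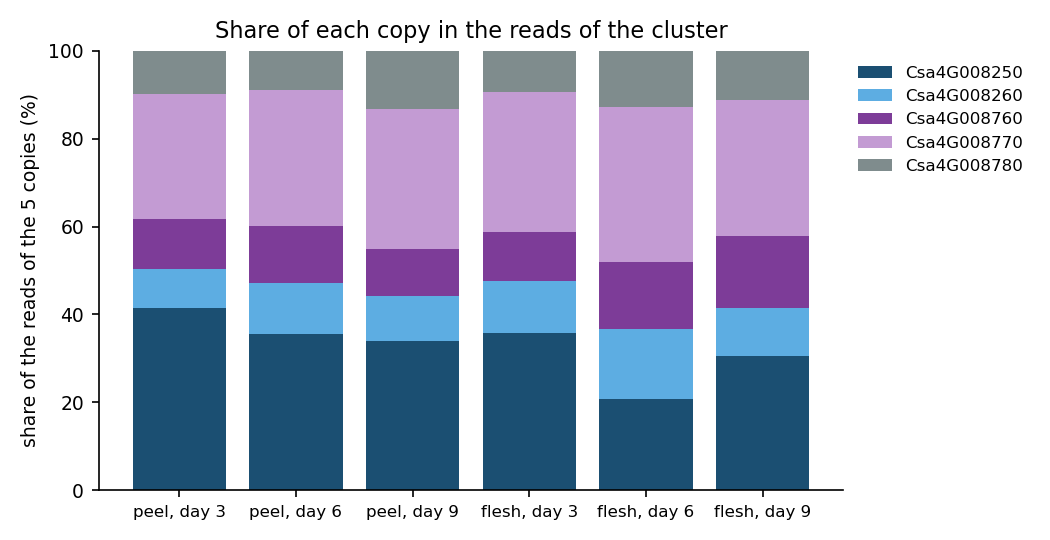
Share of each of the 5 copies in the reads of the group (%) in the 6 libraries, as stacked bars that add up to 100%. Csa4G008250 takes 41.5% in peel at day 3 and 20.7% in flesh at day 6.

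The ratio of the neighbouring short models varied between libraries by more than counting error. Csa4G008250 was at 4.26 times the FPKM of Csa4G008260 in peel at day 3 (3.83 to 4.74), 2.78 times at day 6 and 3.04 times at day 9. In flesh it was at 2.77 times at day 3, 1.21 times at day 6 (0.872 to 1.68) and 2.48 times at day 9. The chromosome 6 PAL group, of 8 genes, held a pair laid out alike, chosen after the annotations were seen. There Csa6G445780, with the shielding domain only, was followed after 401 bp by Csa6G446280, with the N-terminal part only. Their FPKM ratio was 6.25 in peel at day 3 (5.02 to 7.88), 5.02 at day 6 and 4.07 at day 9, and 4.56, 1.60 (1.08 to 2.42) and 3.49 in flesh. In both pairs the ratio was highest in peel at day 3 and lowest in flesh at day 6. In the chromosome 6 pair the interval of peel at day 3 overlapped those of peel at day 6 (4.31 to 5.87) and flesh at day 3 (3.86 to 5.41). Its ratio in flesh at day 6 rests on 143 reads of Csa6G445780 and 32 of Csa6G446280.

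The chromosome 6 group was the other large set of PAL genes. Its sum in peel was 128, 217 and 697 FPKM, and in flesh it was 120, 22.1 and 59.9 FPKM. The chromosome 4 copies thus made up 58.6%, 54.1% and 41.7% of all PAL FPKM in peel at days 3, 6 and 9, and 54.1%, 28.5% and 37.1% in flesh. From day 3 to day 9 in peel the chromosome 4 sum was 2.57 times as high (2.47 to 2.66) and the chromosome 6 sum 5.45 times (5.29 to 5.62). In flesh from day 3 to day 6 the chromosome 4 sum was at 0.0956 of its start (0.0864 to 0.106) and the chromosome 6 sum at 0.184 (0.172 to 0.197). These intervals do not overlap, but they hold counting error only, and with 1 library per tissue and day the difference between the groups was not tested. The remaining 3 PAL genes, each outside both groups, summed to between 11.1 and 21.2 FPKM.

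**Figure D5:**
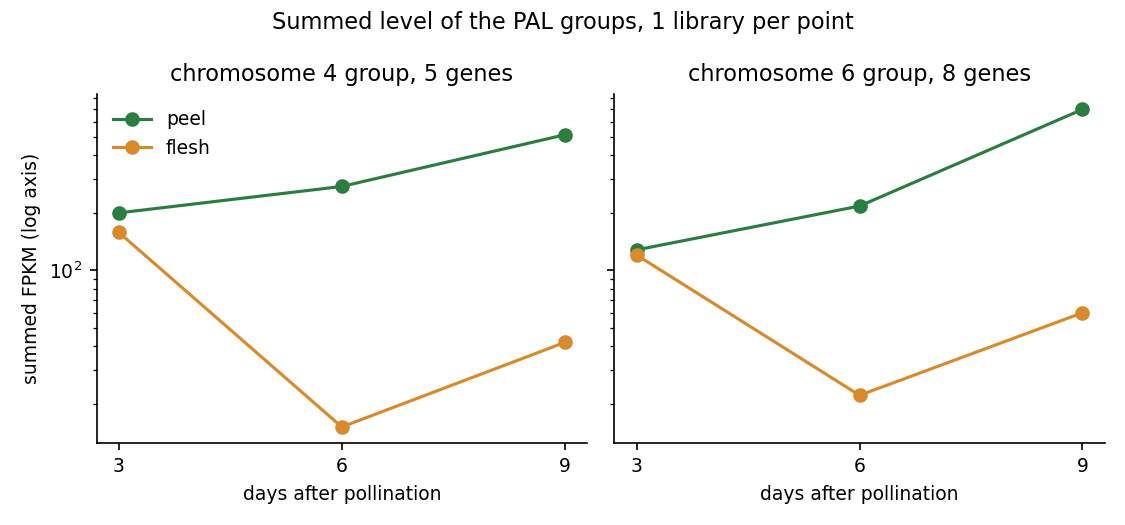
Summed FPKM (log axis) of the chromosome 4 group (5 PAL genes) and the chromosome 6 group (8 neighbouring PAL genes) against days after pollination, with peel in green, flesh in orange and 1 library per point. The chromosome 6 sum ends higher in peel at day 9 (697 against 513 FPKM), and the chromosome 4 sum is lower in flesh at day 6 (15.1 against 22.1 FPKM).

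Other genes of the pathway were read from the same fits. Of the 11 PAL genes elsewhere, 0 passed limma for peel against flesh, 10 had a positive difference, and their median was 1.46 log2 units, against 2.18 for the chromosome 4 copies and -0.03 for all tested genes. Of these 11, 5 were past 4-fold toward peel at day 6 (5.09% of all tested genes were) and 7 at day 9 (7.03%). The most abundant, Csa6G445780, differed by 2.30 ± 0.86 (SE; limma adjusted p = 0.199). Cinnamate 4-hydroxylase, which acts on the product of PAL, had 6 tested genes, of which 4 were past 4-fold toward peel at day 6 and all 6 at day 9. Its median difference was 3.05, with 0 genes past limma, and its most abundant gene, Csa6G133710, differed by 0.48 ± 1.02. The 12 tested 4-coumarate-CoA ligase genes had a median of 0.80, and past 4-fold toward peel there were 2 of them at day 6 and 6 at day 9, to be read against the same shares of all genes. The most abundant, Csa4G653450, differed by 1.54 ± 0.36.

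Upstream, the 26 genes of the shikimate pathway, which makes phenylalanine, had a median of 0.25. Their most abundant gene, the aldolase Csa6G499800 at the start of that pathway, differed by 2.27 ± 0.53 (SE; limma adjusted p = 0.11). Downstream, the 37 tested genes of the lignin branch had a median of 0.11 and the 18 of the flavonoid branch one of 0.35. Laccase-22 (Csa5G160220), of a family that couples lignin units, differed by -0.86 ± 0.33, and a Dihydroflavonol-4-reductase (Csa3G098550), which acts on the way to anthocyanins and tannins, by 0.33 ± 0.41. In none of these 6 lists did limma call a gene for peel against flesh, for the slopes or for day 9 against day 3. At an unadjusted p under 0.05 for peel against flesh, limma found 3, 4, 4, 3, 6 and 4 higher and 0, 0, 0, 1, 6 and 1 lower, of 11, 6, 12, 26, 37 and 18 tested genes in the order in which the lists are given here. Of all tested genes 13% were higher and 12.3% lower at such a p, and the shikimate and lignin counts of higher genes lay near the former share. edgeR called 1 gene for peel against flesh in these lists, in the flavonoid branch, and DESeq2 called 4, 4, 3, 3, 7 and 4 higher and 0, 0, 0, 0, 5 and 1 lower, where 9.95% of its genes were called higher and 6.9% lower. For the slopes DESeq2 called 4 of the 6 cinnamate 4-hydroxylase genes, 1 of the other PAL genes and 1 flavonoid gene with a positive difference (1.18% of its genes), and 1 flavonoid gene with a negative one (1.03%). For day 9 against day 3 it called 2, 0, 1, 1, 1 and 0 higher (7.81% of its genes) and 0, 0, 0, 0, 6 and 6 lower (8.19%).

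The genes next to the PAL copies on the chromosome were compared with them. Of the 5 nearest genes on each side, within 38299 bp, 9 were tested and 0 passed limma in any contrast. Their log2 differences between peel and flesh ran from -0.89 (Csa4G008240, a Receptor-like protein kinase) to 1.10, with 3 above 0, and DESeq2 called 2, where 16.8% of its genes were called in either direction. The highest belonged to Csa4G008790, named as an Acetoacetate decarboxylase, which lay 1092 bp after the last PAL copy. This gene stood at 21.4, 9.39 and 10.8 FPKM in the peel libraries and at 9.19, 3.71 and 4.78 FPKM in those of flesh (1.10 ± 0.17, SE; limma adjusted p = 0.0696; DESeq2 adjusted p = 7.41e-04). Its flesh values were lowest at day 6, as in the PAL copies, but its peel values were highest at day 3. The other gene that DESeq2 called, Csa4G008220, had the lower levels in peel (24.5, 22.5 and 25.5 FPKM, with 46.2, 47.3 and 39.2 FPKM in flesh; DESeq2 adjusted p = 7.43e-03; limma adjusted p = 0.0936). A single neighbour was past 4-fold on any day or step, the Unknown protein Csa4G008830, whose highest level was 4.28 FPKM. On the other side the closest neighbour of Csa4G008250 lay 3934 bp away.

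Genes whose levels followed the summed level of the copies most closely were named by their Pearson correlation over the 6 libraries, among the 13802 genes whose mean reached 5 FPKM. This is a description over libraries that share tissue, day and depth. The closest was Cinnamoyl-CoA reductase 4 (Csa3G715370; r = 0.997), of a family of monolignol enzymes, which stood at 31.5, 37.0 and 99.1 FPKM in the peel libraries and at 16.7, 0.303 and 2.60 FPKM in those of flesh. Blue copper protein (Csa7G432520; r = 0.994) stood at 125, 116 and 220 FPKM in the peel libraries and at 91.5, 11.7 and 29.6 FPKM in those of flesh. A Putative nitrate-induced NOI protein (Csa5G591770; r = 0.993) stood at 80.1, 74.4 and 141 FPKM in the peel libraries and at 40.1, 3.25 and 10.8 FPKM in those of flesh. All 3 had their lowest level in flesh at day 6 and their highest in peel at day 9. The chromosome 6 PAL gene Csa6G445780 (r = 0.991) came next. NADPH--cytochrome P450 reductase (Csa1G423150; r = 0.991), which passes electrons to P450 enzymes, and Phytochrome interacting factor 4 (Csa4G615240; r = 0.989), a light-responsive transcription factor, completed the 6. With a pseudocount of 0.1, 5 of them stayed among the 6 closest, and after upper-quartile rescaling 4 did. Csa4G615240 was at rank 8 in the former and 11 in the latter, and Csa1G423150 at rank 7 in the latter. Of the 7 other PAL genes compared, 3 were among the 100 most alike, and Csa1G590300, alone on chromosome 1, was at rank 2556 (r = 0.605).

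The libraries held between 14899922 and 23740219 recovered reads in genes. Of 14 genes of the epidermis and cuticle list, all of them 3-ketoacyl-CoA synthases (wax elongases), 11 were tested. Of these, 2 passed limma as higher in peel (0.18% of all tested genes did) and 0 as lower. Their summed level, given by day above, was higher in peel on each day, as the labels have it. The 31 vascular and phloem genes summed to 8832 to 14651 FPKM in peel and to 1507, 5027 and 18131 FPKM in flesh at days 3, 6 and 9. Seed genes (25) summed to 111 to 124 FPKM in peel and 358 to 454 in flesh. Limma called 1 of the 12 tested seed genes lower in peel, where 14 of 17265 tested genes passed in that direction. This was Csa3G218170 (-3.70 ± 0.29, SE; limma adjusted p = 0.0471). Genes of green tissue (45) summed to 1193 to 3174 FPKM in peel and 2142 to 3094 in flesh, and heat shock genes (49) to 1429 to 1718 and 1340 to 1519. For peel against flesh limma called 0 vascular, green tissue or heat shock genes. DESeq2 called 6, 2, 0, 2 and 2 higher and 0, 3, 6, 7 and 3 lower (9.95% and 6.9% of its genes). This was of 11, 25, 12, 39 and 37 tested epidermis, vascular, seed, green tissue and heat shock genes. For the slopes it called 3 epidermis genes positive (1.18%), and 11 vascular and 3 heat shock genes negative (1.03%). For day 9 against day 3 it called 0, 6, 1, 1 and 0 higher (7.81%) and 0, 4, 1, 17 and 3 lower (8.19%). Of these 5 lists only the seed list held a gene at 0 in every library, 1 gene. The part of these cell types in the PAL levels was not tested.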

How the data were processed

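Libraries were made from total RNA by mRNA isolation and removal of ribosomal RNA, per the labels' protocols. The submitters' processing notes list TopHat, without a version, as well as Cufflinks 2.1.1. How strand and reads with several matches were handled, and which build and annotation served, is not given in the sources used here. The authors deposited an FPKM value per gene and library, and columns headed count. The latter are a scaled signal that the authors made before deposit: in each library the values were multiples of 1 step (0.565 to 1.07), and dividing by it gave numbers within 0.05 of a whole for 99.8% to 100.0% of values.

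The 17265 genes whose mean reached 1 FPKM were tested on log2(FPKM + 1) in limma 3.58.1 (R 4.3.3), with tissue and day as a factor (or tissue by day as a number for slopes), a variance trend and Benjamini-Hochberg adjustment over all tested genes, two-sided, with 2 residual degrees of freedom. P-values reflect the spread between these single libraries, which limma moderates toward that of all tested genes. Alternatives were DESeq2 1.42.0 and the quasi-likelihood test of edgeR 4.0.16, both on recovered reads, with pseudocounts, filters, upper-quartile rescaling and left-out libraries. The fits were tested on simulated data for peel against flesh, with 200 of 17265 genes changed 16-fold. There limma recovered 199 with 27 unchanged genes called, edgeR 199 with 7 and DESeq2 198 with 9. These counts hold for the simulated data and that fold only. There all genes shared the same spread beyond counting error, and the fold was equal on all days. Which fit to rely on for the PAL copies cannot be read from these counts. Recovery at smaller folds, or at folds that differ between days as in the PAL copies, was not tested for peel against flesh. Counting intervals are exact binomial at 95%, and for summed FPKM they are approximate, as the reads were pooled over genes. Named were the 5 copies, the 6 genes most like their sum, the most abundant gene of each list, and flanking genes that passed DESeq2 or 4-fold or had an extreme difference. The members and lists were chosen with earlier results of these data known.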

Additional observations from a re-analysis of the deposited data

Results flagged for a closer look

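Peel and flesh moved in opposite directions from day 3 in all 5 copies, and this difference in course is why they are listed here. The step from day 3 to day 6 in peel minus that in flesh, in log2(FPKM + 1) units, was 4.04 for Csa4G008250, 3.41 for Csa4G008260, 3.02 for Csa4G008760, 3.40 for Csa4G008770 and 2.41 for Csa4G008780. From day 3 to day 9 it was 3.16, 3.38, 2.54, 3.35 and 3.07 in the same order. Each step rests on 1 library per tissue and day, so these differences were not tested. The slope model called 0 of the 5 copies in limma, edgeR and DESeq2. Its limma estimates were unchanged with either day 6 library left out, so they rest on days 3 and 9. The slope model therefore does not test the step from day 3 to day 6. A higher level in peel together with a lower one in flesh at day 6 than at day 3 was found in 3260 of the 17265 tested genes (18.9%), and with flesh at least 4-fold lower in 72 of them (0.417%). These are patterns that the copies themselves showed, so the shares are a description only.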

How the results depend on the processing

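For peel against flesh limma called 45 genes. It called 167 with a pseudocount of 0.1, 120 with no day term, 475 with day as a number, and 0 with a pseudocount of 5, no filter or no trend, while edgeR called 264 and DESeq2 3094. With any 1 library left out it called 0 to 0 genes, with 1 residual degree of freedom. All 5 copies stayed higher in peel in all 80 estimates of this contrast (5 copies under each alternative), and only DESeq2 called them. Many of the 80 were not separate checks. Changing the filter, dropping the trend or treating day in another way repeated the copies' main estimates and could not turn a sign. Leaving out the peel library of a given day gave the same estimate as leaving out its flesh library. For day 9 against day 3 the count of 0 became 4 with a pseudocount of 0.1, 8 with a mean of at least 5 FPKM, 25 in edgeR and 2875 in DESeq2, and for the slopes it became 354 in DESeq2. For day 9 against day 3, some alternatives repeated the copies' main estimates and could not turn a sign. These were no filter, a mean of at least 5 FPKM, no trend and leaving out a day 6 library. The sign of the uncalled copies was unstable for this contrast, in 17 of 70 estimates with these counted. Without single libraries it ran from -2.24 to 1.36 (Csa4G008250), -1.79 to 1.61 (Csa4G008260), -1.34 to 1.45 (Csa4G008760), -1.80 to 1.57 (Csa4G008770) and -1.17 to 1.57 (Csa4G008780), and the libraries that turned it were those of days 3 and 9. With a pseudocount of 5 it was 0.031 for Csa4G008260 and 0.017 for Csa4G008770. Csa4G008760 was at -0.064 after upper-quartile rescaling, -0.31 in edgeR and -0.30 in DESeq2, and Csa4G008780 at -0.16 and -0.17 in the latter pair. The slope difference turned without flesh at day 3, with ranges of -0.40 to 1.45 (Csa4G008250), -0.16 to 1.00 (Csa4G008760) and -0.076 to 1.19 (Csa4G008770), and it was close to 0 in Csa4G008260 (0.0073) and Csa4G008780 (0.039). With a pseudocount of 5, 2 of the 5 copies were at least 4-fold lower in flesh from day 3 to day 6, in place of 5, and for peel over flesh at day 6 the count was 4 in place of 5. With the sums taken as a share of each library's recovered reads, the ratio of sums was 1.18 for peel over flesh at day 3, 1.63 for peel day 9 over day 6 (1.68 after upper-quartile rescaling, chosen after seeing the data) and 2.41 for flesh day 9 over day 6. The cause of these shifts was not tested. In flesh at day 6 single copies rest on 56 to 153 reads, in the library with the most recovered reads.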
